A study of Mus musculus with 3 samples.

Results

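The genes described here are 38 markers of the macrophages and dendritic cells of the spleen, listed by name, with earlier results of these data known. Each was represented by the probe set, a group of short probes for 1 transcript, that carried its single listed symbol and had the highest mean signal over the arrays. This found 37 of the 38 among 18193 genes in all, and Clec9a, a receptor of cross-presenting dendritic cells, was not analysed here.

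Messenger RNA was measured on 3 arrays, 1 for each of 3 mouse cell populations of strain C57BL/6. Embryonic stem (ES) cells came from the line B6N-22 and grew on mitomycin C-treated mouse embryonic fibroblasts with leukemia inhibitory factor. The splenic B220 B cells and the splenic CD4 T cells came from mice 6 to 8 weeks old, carried no stated treatment or genetic change, and were sorted with magnetic beads to a stated purity above 98%. The labels give neither the number of mice nor whether feeder fibroblasts were removed from the ES cells. No population had a second array, so there is no error between replicates and no test, and every value below describes these arrays only. Below, the marks (ES), (B) and (T) name the array of a signal, and signals with no mark are in that order.

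Macrophages of the splenic red pulp take up ageing red blood cells, break down their haem and return the iron to the blood. They depend on the receptor for macrophage colony-stimulating factor, and the transcription factor Spi-C is known for its part in their development. Dendritic cells take up antigen and present it to T cells. Neither cell type belongs to the B or T lineage, and both lie in the same tissue from which the lymphocytes were sorted.

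Signals are in array units on a linear scale, and a signal is compared only between arrays for the same probe set. A signal of 95, the 50th percentile of all values, served as the detection level. Dimmer signals were set to it for log2 differences, and a ratio to such a signal is given as "at least". Of the 37 genes, 34 were above the detection level in the B cell array, 32 in the T cell array and 17 in the ES cell array. Msr1 (a scavenger receptor), Siglec1 (the sialic acid receptor of marginal metallophilic macrophages) and Xcr1 (a chemokine receptor of cross-presenting dendritic cells) were below it on all arrays, by their brightest and by every other probe set, with no signal above 89.7.

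The labelled cell types were checked against their markers. The 12 measured T cell genes had a summed signal of 90849 in the T cell array and 1724 in the B cell array, with Cd3d at 17144.4 and 364.2 and Cd3g at 12798.4 and 162.9. The 14 B cell genes summed to 173554 in the B cell array and 9930 in the T cell array, with Ms4a1 at 32919 and 2202.2 and Cd79b at 31707 and 1096.1. The 8 ES cell genes summed to 115835 in the ES cell array and to 329 and 282 in the B and T cell arrays, with L1td1, the one of them also detected in lymphocytes, at 15783 in ES cells. Each label was thus matched by its own markers, while 13 of the 14 B cell genes were also above the detection level in the T cell array and 8 of the 12 T cell genes in the B cell array.

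**Figure D1:**
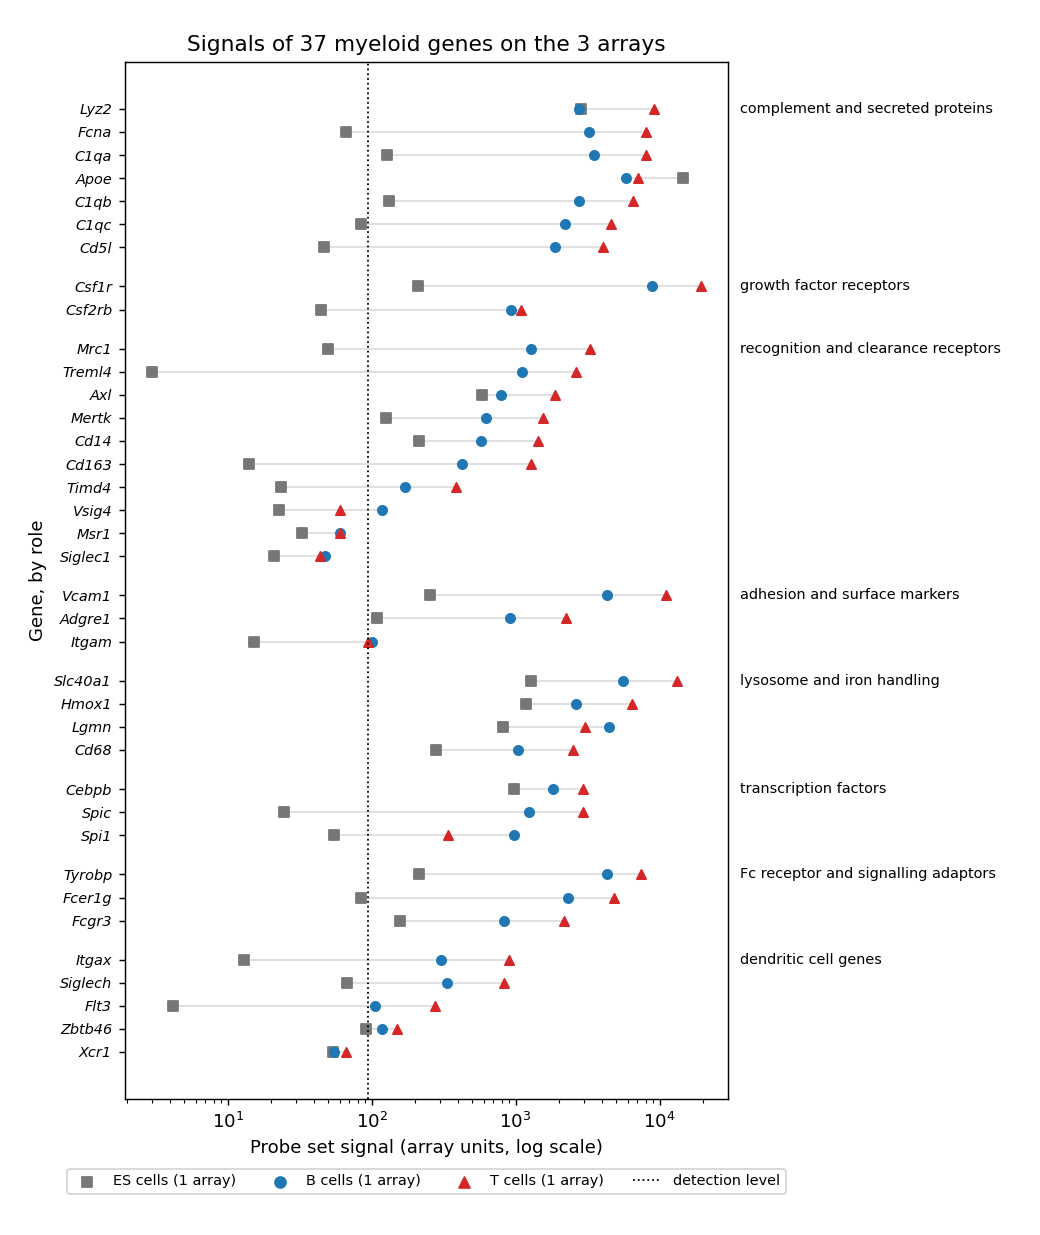
Signals of the 37 genes, grouped by role, with probe set signal in array units on a log axis and 1 point per array. Most genes lie in the order ES cells, B cells, T cells, and the dotted line is the detection level of 95.

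Most macrophage genes were higher in both lymphocyte arrays than in the ES cell array, and the T cell array exceeded the B cell array. Of the measured members, 24 of 32 exceeded ES cells by 4-fold or more in the T cell array, where 10.8% of all measured genes did, and 0 were at least 4-fold lower, where 10.2% were. Against the same ES cell array, 20 of 34 did so in the B cell array, beside 9.85% of all genes, and 0 were at least 4-fold lower, beside 10.3%. The median log2 differences were 3.57 for T cells and 2.34 for B cells, beside -0.11 and -0.07 over all measured genes. The ES cell signal was below the detection level for 15 of the 32 and 17 of the 34, which makes those differences lower bounds.

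The secreted proteins of macrophages were among the genes with large differences from ES cells. C1qa, C1qb and C1qc encode the chains of C1q, which starts the classical complement pathway. C1qa had a signal of 127.2 (ES), 3529 (B) and 8028.3 (T). For C1qb the signals were 132.8, 2739.2 and 6537.4 in the same order, and for C1qc 85, 2197.5 and 4617.6. All of them ran in the same order across the arrays, and the T cell to B cell ratios of the 3 chains were 2.27, 2.39 and 2.10.

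Fcna encodes ficolin A, a lectin that starts the lectin pathway of complement, and its signals were 66.2 (ES), 3243.7 (B) and 8075.8 (T). Cd5l, a protein that macrophages secrete, had signals of 47.1, 1873.4 and 4042.5. Both were below the detection level in ES cells, so that T cells exceeded them at least 85.0-fold for Fcna and at least 42.6-fold for Cd5l.

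The sequences just upstream of 4 of these secreted protein genes are shown because their signals moved together across the arrays. They are the 250 bases before the annotated start from RefSeq, build GRCm38.p6, and all are written 5′ to 3′ on the strand of the gene. C1qb lies at chr4:136886201-136886450 and C1qc at chr4:136892915-136893164, both on the minus strand, Fcna at chr2:25627975-25628224 on the minus strand, and Cd5l at chr3:87357631-87357880 on the plus strand. Capitals mark GAGGAA or its reverse complement TTCCTC, the core letters of sites bound by PU.1, the factor encoded by Spi1.
C1qb: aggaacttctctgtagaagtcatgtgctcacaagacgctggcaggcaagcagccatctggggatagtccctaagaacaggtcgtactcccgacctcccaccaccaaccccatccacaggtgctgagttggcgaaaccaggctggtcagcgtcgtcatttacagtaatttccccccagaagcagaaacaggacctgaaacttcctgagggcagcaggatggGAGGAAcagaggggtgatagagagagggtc
C1qc: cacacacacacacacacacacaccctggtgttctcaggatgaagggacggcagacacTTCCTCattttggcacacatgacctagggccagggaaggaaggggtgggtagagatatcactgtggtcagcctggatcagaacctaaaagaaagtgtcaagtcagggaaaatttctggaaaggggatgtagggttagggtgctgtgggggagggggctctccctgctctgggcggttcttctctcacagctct
Fcna: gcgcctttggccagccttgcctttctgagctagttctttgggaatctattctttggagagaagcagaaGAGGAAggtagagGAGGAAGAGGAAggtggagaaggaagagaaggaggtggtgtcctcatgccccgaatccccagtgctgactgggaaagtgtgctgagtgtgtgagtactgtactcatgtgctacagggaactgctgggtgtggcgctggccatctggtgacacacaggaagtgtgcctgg
Cd5l: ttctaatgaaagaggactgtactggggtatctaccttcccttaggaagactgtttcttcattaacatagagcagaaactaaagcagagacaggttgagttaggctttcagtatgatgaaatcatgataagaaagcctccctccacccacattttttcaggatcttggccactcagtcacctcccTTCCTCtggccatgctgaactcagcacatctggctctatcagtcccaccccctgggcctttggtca

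GAGGAA was found once in C1qb, C1qc and Cd5l and 3 times in Fcna, where 2 of the matches are adjacent. Over the genes listed with a promoter, 12 of 26 members held it on either strand in this window, 46.2%, beside 25.9% of 27025 genes. The longer form GAGGAAGT, which contains the shorter one, was found in 1 of the 26, C1qc, which is 3.85% beside 2.79% of all genes. Every sequence shown held a match. Cd163, Cebpb, Fcer1g, Flt3, Itgax, Mertk, Siglech, Spic, Timd4 and Zbtb46 held none, although their signals ran in the same order across the arrays. Of the other secreted protein genes, Lyz2 held none and C1qa was not listed with a promoter. Apoe, highest in the ES cell array, held a match, as did Itgam and Vsig4, which were lower in T cells than in B cells. A match is only a match of letters, and binding was not measured.

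Lyz2 and Apoe differed from the other secreted proteins in that the ES cell array was not the lowest. Lyz2, which encodes lysozyme, had signals of 2836.1 (ES), 2752.1 (B) and 9136.5 (T). The T cell array was 3.32-fold above the B cell array, the largest ratio among the members, while the B and ES cell arrays were nearly equal. Apoe, a carrier of lipids that many cell types make, had signals of 14475.7 (ES), 5883.6 (B) and 7078.4 (T), and was the one member at least 2-fold lower in both lymphocyte arrays than in ES cells. The ES cell array also held a summed signal of 74234 over 12 stromal and fibroblast genes, such as Acta2 at 16853.6, against 731 in the B cell array and 7697 in the T cell array, of which Thy1, a T cell gene as well, gave 7185.1. The part of feeder cells in the ES cell signals of Apoe and Lyz2 was not tested.

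Csf1r encodes the receptor on which macrophages depend for survival, and its signals were 208.9 (ES), 8929.9 (B) and 19275 (T). Its T cell signal was 92.3-fold and its B cell signal 42.7-fold above ES cells. By all 3 of its probe sets the T cell array was higher than the B cell array, with log2 differences of 1.11, 1.33 and 1.14. Csf2rb encodes the chain shared by the receptors for interleukin-3, interleukin-5 and granulocyte-macrophage colony-stimulating factor, and mouse has a closely related copy, Csf2rb2, whose transcripts its probes may also bind. Its signals were 44.9, 935.2 and 1093, so that the lymphocyte arrays differed by 1.17-fold, and its second probe set gave a log2 difference of -0.02 between T and B cells.

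Receptors for the uptake of debris and dying cells followed the order of Csf1r. Mrc1, the mannose receptor, had signals of 49.5 (ES), 1287.2 (B) and 3275.1 (T). Cd163, which takes up haemoglobin bound to haptoglobin, had 14, 425 and 1272.2. Treml4, a receptor of red pulp macrophages and some dendritic cells, had 3, 1100.8 and 2610. The T cell array was the highest and the ES cell array the lowest for each.

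The related kinase receptors Mertk and Axl, which recognise dying cells, gave signals of 127, 619 and 1549.1 for Mertk and of 588.3, 797.9 and 1885.1 for Axl. Axl was thus detected in all arrays, and its other probe set was below the detection level on all of them. Cd14, a coreceptor for bacterial lipopolysaccharide, had 215.3, 571.7 and 1424.5. Timd4, which binds phosphatidylserine on dying cells, had 23.5, 169.6 and 387.7. Vsig4, a complement receptor of tissue macrophages, went the other way, with 22.6, 119.1 and 60.7, and its T cell signal was below the detection level. Of the 10 receptors, 8 were measured in T or B cells and 7 of these had T cell signals at least 2-fold above B cells, as did 8.89% of all measured genes.

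Among surface markers, Adgre1, which encodes the macrophage antigen F4/80, had signals of 109.6 (ES), 908.2 (B) and 2236.9 (T). Vcam1, an adhesion molecule of red pulp macrophages that endothelium also makes, had 256.1, 4312.8 and 11112. Its 3 probe sets gave T cell minus B cell differences of 1.37, 1.17 and 1.12 on the log2 scale. Itgam, the alpha chain of the integrin Mac-1 of monocytes and neutrophils, was near the detection level, with 15.2, 101 and 94.5.

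The genes of iron handling were higher in lymphocyte arrays, although the ES cell array also had signal for them. The part of feeder cells in that signal was not tested. Slc40a1, the iron exporter ferroportin, had signals of 1277.8 (ES), 5561.2 (B) and 13303.3 (T), and its second probe set gave the same order. Hmox1, which breaks down haem, had 1177, 2639.8 and 6473.9. The T cell to B cell ratios of these genes were 2.39 and 2.45. Of the lysosomal proteins, Cd68 had 281.7, 1037.3 and 2518.4, and the protease gene Lgmn had 822.2, 4462.6 and 3033.6. Lgmn was 1.47-fold lower in T cells than in B cells, opposite to the other genes of its group.

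The transcription factor genes went in different directions. Spic, the red pulp macrophage factor gene, had signals of 24.6 (ES), 1234.9 (B) and 2940.5 (T). This is its brightest probe set, of a type that the array's design marks as open to cross-hybridisation. Its other probe set, of a type whose probes can match several transcripts, gave a similar log2 difference of 1.48 between T and B cells. Spi1, which encodes PU.1, a factor of both macrophages and B cells, had 54.5, 973.8 and 339 and was 2.87-fold lower in T cells than in B cells. Cebpb, a factor of myeloid and many other cells, had 983.2, 1822.4 and 2959.2. Spi1 was the 1 member at least 2-fold lower in T cells than in B cells, where 6.32% of all genes were.

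The signalling group comprised the Fc receptor gene Fcgr3 and the adaptor genes Fcer1g and Tyrobp, all of which NK cells also express. Fcer1g, the shared gamma chain of Fc receptors, had signals of 84.1 (ES), 2305.3 (B) and 4856.8 (T). Fcgr3 had 158.1, 836.3 and 2180.9. Tyrobp, the adaptor DAP12, had 212.4, 4336.2 and 7446.5. All were highest in T cells, with T cell to B cell ratios of 2.11, 2.61 and 1.72.

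Of the 5 dendritic cell genes with a probe set, 4 were measured in T or B cells. Itgax, the integrin chain CD11c, had 13 (ES), 303.2 (B) and 903.6 (T). Siglech, a receptor of plasmacytoid dendritic cells, had 67.1, 336.8 and 834.4. Flt3, a growth factor receptor of dendritic cells and progenitors, had 4.2, 105.5 and 274.1, with a B cell signal just above the detection level. These had T cell to B cell ratios of 2.98, 2.48 and 2.60. Zbtb46, a factor of conventional dendritic cells, had 92.2, 118.9 and 149.7, and its second probe set was below the detection level in B cells.

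The next comparison asked whether the T cell to B cell ratio was the same over all members. A share of macrophages and dendritic cells, in the same proportions in both preparations, would give 1 common ratio for every gene that only those cells express. With different proportions, each cell type would have its own ratio. In bulk RNA, a larger number of such cells and more RNA per cell cannot be told apart. For 34 measured members the median log2 difference of T cells minus B cells was 1.25, a ratio of 2.38, with quartiles of 0.85 and 1.32. Over all 11194 measured genes the median was -0.05, with quartiles of -0.36 and 0.32. Over the 3994 genes whose mean signal in the lymphocyte arrays lay between the members' quartiles, the median was -0.02, with quartiles of -0.30 and 0.27.

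**Figure D2:**
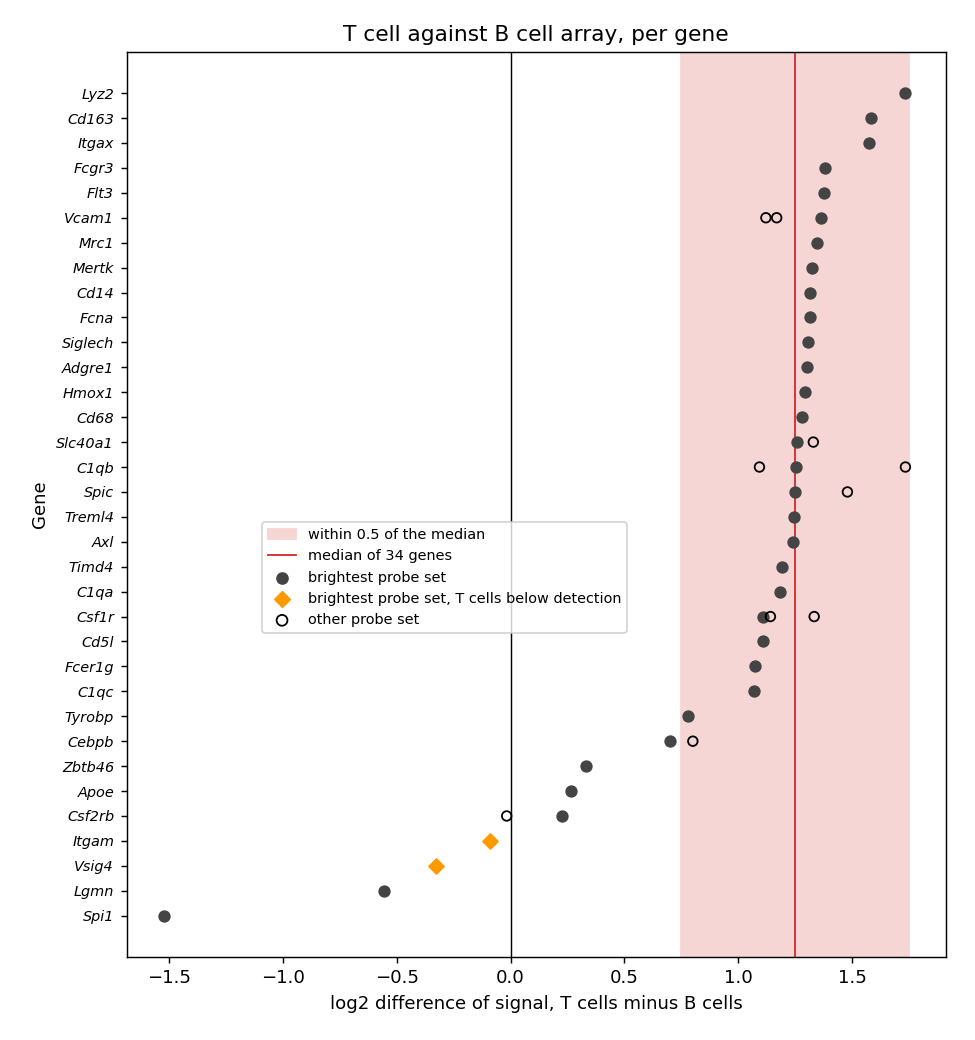
The log2 difference of signal between the T cell and B cell arrays for the 34 measured members, 1 row per gene, with filled points for the brightest probe set and open circles for other probe sets measured on both arrays. Of the 34, 26 lie in the shaded band within 0.5 of the median of 1.25 and 8 lie below it.

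Of the 34, 30 were higher in T cells and 4 lower, where 45.7% of all measured genes were higher. By 2-fold or more, 25 members exceeded B cells in the T cell array, beside 8.89% of all genes, and 0 reached 4-fold in either direction, beside 2.49% higher and 1.85% lower over all genes. Within 0.5 on the log2 scale of their own median lay 26 members, or 76.5%, and 65.02% of all genes lay as close to the median of all genes. Within 0.5 of the members' median lay 9.42% of all genes. With a window of 0.25, chosen after the data were seen, 22 members lay inside, and 4.15% of all genes lay in that same window. Both windows are centred on the members' own median, so these shares of all genes do not measure how even the members were. For the window of 0.25, the share of all genes around their own median was not taken.

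The disagreement between probe sets of 1 gene is the only error these arrays hold. For 4555 genes the brightest and second brightest probe sets were each detected in both lymphocyte arrays. The disagreement of such a pair had a median absolute size of 0.28 on the log2 scale. Over these pairs it corresponds to a standard deviation of 0.35 for a single probe set, which is smaller than that of the disagreement itself. Over the 7 members with such a pair the median absolute disagreement was 0.22 and the largest, that of C1qb, 0.48. The second probe set of C1qb is also of the type marked as open to cross-hybridisation. Counting every member probe set detected in both lymphocyte arrays, 39 of 42 were higher in T cells and 35 were within 0.5 of the median of 1.25.

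The closest to the median were Spic at 1.25, Treml4 at 1.25, C1qb at 1.25, Axl at 1.24 and Slc40a1 at 1.26. These genes encode a transcription factor, 2 receptors, a complement chain and an iron exporter. At the edges of the window, Lyz2 at 1.73 and Tyrobp at 0.78 were just inside and Cebpb at 0.70 just outside. The ratio was thus not the same over all members. All 8 members outside the window were below it, and 0 were above it.

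The 8 below were Cebpb, Zbtb46 at 0.33, Apoe at 0.27, Csf2rb at 0.22, Itgam at -0.09, Vsig4 at -0.33, Lgmn at -0.56 and Spi1 at -1.52. Their distances from the median ran from -0.55 to -2.77, beside the probe set standard deviation of 0.35. Zbtb46 gave 1.04 by its second probe set. The values of Itgam and Vsig4 are bounds, since their T cell signals were below the detection level. Of the members known also from B lineage cells, Spi1, Spic, Csf2rb, Itgax and Cebpb, the median was 0.70, with a range from -1.52 to 1.58. The other 29 measured members had a median of 1.25 with quartiles of 1.08 and 1.32. Members known also from fibroblasts or endothelium, 11 genes, had a median of 1.28, and 5 known also from NK cells a median of 1.08.

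By role, the medians of the T cell minus B cell difference were 1.19 for 7 secreted proteins, 1.28 for 8 recognition receptors, 1.30 for 3 surface markers and 1.27 for 4 genes of lysosome and iron handling. They were 1.34 for 4 dendritic cell genes, 1.08 for 3 Fc receptor genes and adaptors, 0.70 for 3 transcription factors and 0.67 for both growth factor receptors. A single discordant gene weighs heavily in groups this small, and differences between the groups were not tested. The interquartile range over the measured members was 0.46, beside 0.68 over all genes. It was 0.24 over the 32 members detected in both lymphocyte arrays, and 0.98 over 37 with a lower detection level, the 35th percentile.

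**Figure D3:**
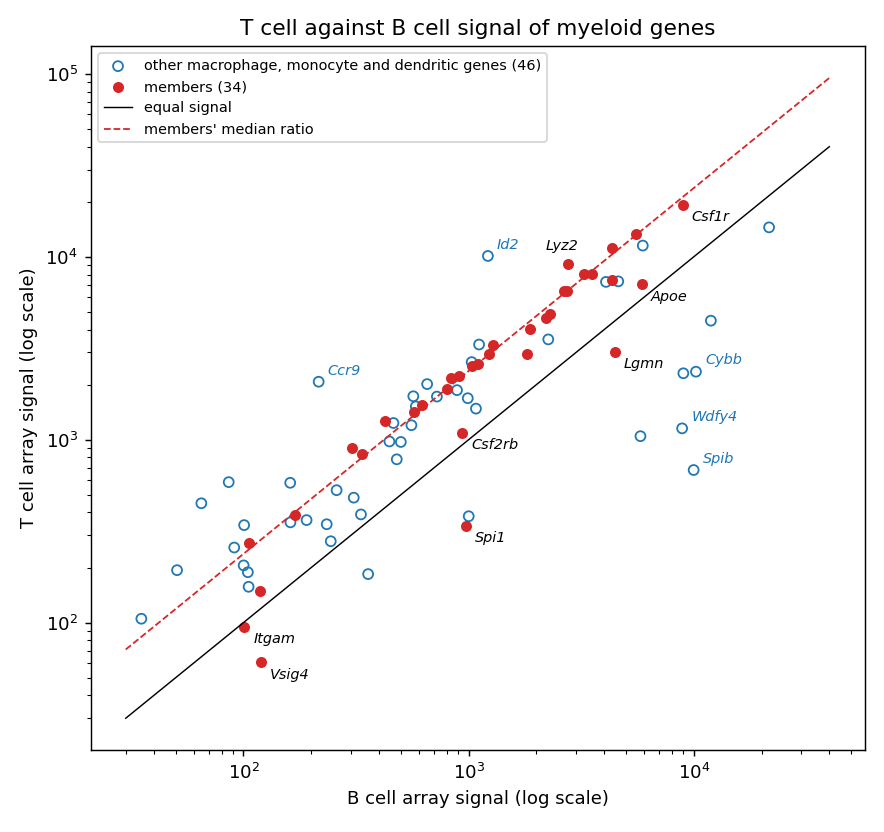
T cell signal against B cell signal on log axes for the 34 measured members (filled) and 46 other macrophage, monocyte and dendritic cell genes (open). The dashed line is the members' median ratio of 2.38 and most members lie along it, while Spi1, Lgmn, Vsig4 and Itgam lie below the line of equal signal.

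For the 32 members detected in both lymphocyte arrays, log2 T cell signal against log2 B cell signal had a slope of 0.96, with Pearson r of 0.92 and Spearman rho of 0.93. The points share the 2 arrays and the strength of each probe set, so this is a description only. Dim members depended on the detection level, and with that level at the 65th percentile Timd4 gave 0.67 and Flt3 0.16, both outside the window.

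Macrophage and dendritic cell genes that are no members were described in the same way. Of 35 further macrophage and monocyte genes 29 were measured, with a median T cell minus B cell difference of 0.96, quartiles of 0.57 and 1.36, and 17 within 0.5 of the members' median. Sirpa, a receptor for the signal CD47, was 3.08-fold and Aif1, a calcium-binding protein of macrophages, 3.04-fold higher in T cells. Ccr2, a chemokine receptor of monocytes and of some T cells, exceeded B cells at least 6.17-fold in the T cell array. Cybb, an oxidase subunit that B cells also express, was 4.34-fold lower, with signals of 10226.7 in B cells and 2354.6 in T cells.

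Of 20 further dendritic cell genes 17 were measured, and they were spread widely, with a median of 0.85 and quartiles of -1.39 and 1.76. Within 0.5 of the members' median lay 4, namely Bst2, Cadm1, Clec10a and Esam, named after their values were seen. Spib, a transcription factor gene of B cells and plasmacytoid dendritic cells, was 14.6-fold lower in T cells. Wdfy4, which dendritic cells need for cross-presentation, was 7.70-fold lower, and Tcf4, a factor of plasmacytoid dendritic cells and B cells, 5.55-fold lower. Ccr9 was 9.61-fold, Id2 8.30-fold and Itgae at least 4.73-fold above B cells in the T cell array, and all are known from T cells as well. The probe set of Ccr9 is of the type marked as open to cross-hybridisation. Genes of this list thus lay on both sides of the members.

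**Figure D4:**
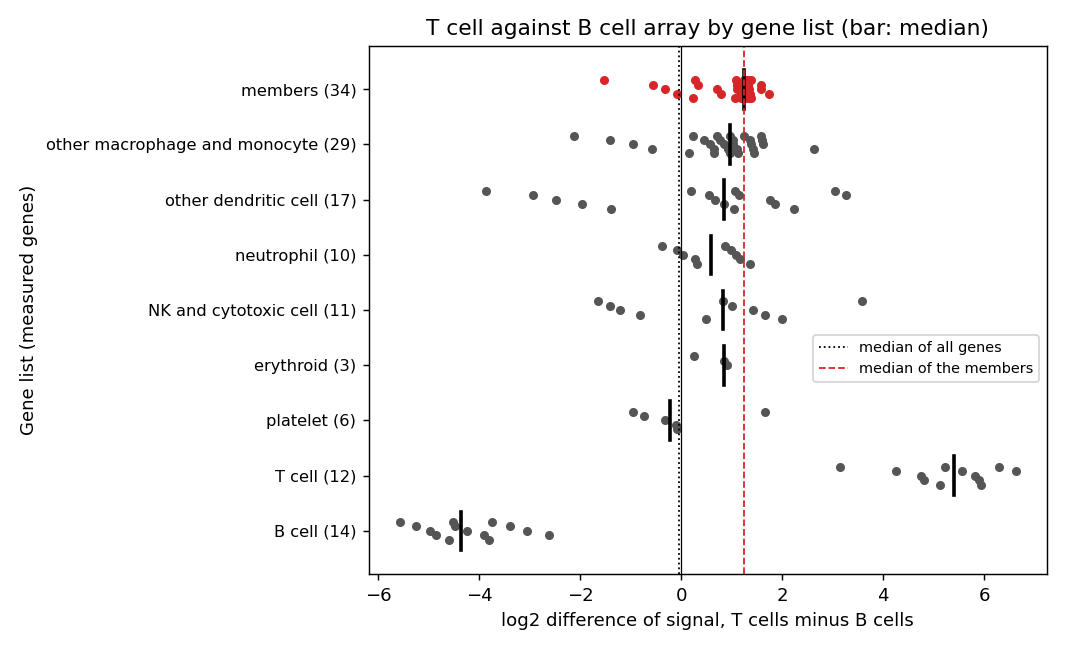
The log2 difference of signal between the T cell and B cell arrays for each measured gene of 9 gene lists, with a bar at each median. The members run from -1.52 to 1.73 with a median of 1.25, and other dendritic cell genes from -3.87 to 3.27 with a median of 0.85.

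Some markers of other spleen cells, like the members, had more signal in T cells than in B cells. Neutrophil genes, 10 measured, had a median of 0.59 and a summed signal of 7959 in B cells and 15932 in T cells. Here and below, medians cover the measured genes, and sums cover every gene with a probe set, also those below the detection level. In the order B then T cells, and so for the pairs below, S100a8 was at 3966.1 and 8944.6 and S100a9 at 2443.9 and 4451. The other genes of the list with a probe set were described after their values were seen. Mmp9 was at 220.9 and 564.3, Csf3r at 464.7 and 982, Cxcr2 at 109.4 and 135.5 and Lcn2 at 144.5 and 287.6. Ngp was at 230.8 and 218.7, Ltf at 124.5 and 78.4, Camp at 68.2 and 115.4, Elane at 101.4 and 104.2 and Mpo at 84.7 and 50.5. NK and cytotoxic cell genes, 11 measured, had a median of 0.83 and sums of 5292 and 10797, with Ccl5 at 1582.2 and 4249.5 and Klrd1 at 590.2 and 2355. Il2rb, at 77.6 and 1132.7, had the largest difference of the list and was below the detection level in B cells. Ncr1, Gzma, Klre1 and Klra8, like Il2rb named after their values were seen, were lower in T cells. Erythroid genes had sums of 605 and 910 over 7 genes (Slc4a1 at 168.9 and 305, Epor at 162.7 and 195). Only 3 of the 7 were measured, so these sums hold signals below the detection level. Platelet genes, 6 measured, had sums of 1900 and 2080 (Pf4 at 493.2 and 294, Itgb3 at 359.4 and 1137.4). Their median was -0.21, with 5 lower and 1 higher in T cells. For all members together the sums were 68733 in B cells and 142177 in T cells, a ratio of 2.07, beside 2.00 for the neutrophil and 2.04 for the NK lists, 1.503 for the erythroid and 1.09 for the platelet lists. The ratio of sums was 1.01 for the further macrophage and monocyte genes and 0.70 for the further dendritic cell genes. A sum is carried by the brightest genes of its list, such as S100a8 and S100a9, so similar ratios of sums do not show that single genes were alike. The part of these other cells in the members' differences was not tested.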

How the data were processed

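The authors deposited linear intensity values of 45037 probe sets, and per the submitters' processing notes the tool was Affymetrix Expression Console. No source used here gives its version, summarization or scaling. Trimmed means (2%) of the columns were 497.1 to 497.6, so a general change in mRNA content cannot be seen.

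Probe sets were named through GEO's array annotation, with symbols checked by Entrez ID against RefSeq (GRCm38.p6). Of them 34945 had 1 symbol, 932 several and 9160 none listed. Entrez IDs of 34741 were found and 0 symbols changed. Differences of log2 signal, with a floor at the 50th percentile, were taken with numpy 2.4.6 and pandas 2.3.3, and the code was tested on simulated data. A gene was measured in a comparison where either array was above the floor. The members and lists were chosen with earlier results of these data known. All members are given. Of further macrophage and dendritic cell genes, the 4 with the greatest difference between T and B cells in each list and any at least 4-fold apart were named, and of each other list up to 2 genes with the highest mean signal in the T and B cell arrays among those measured there. Alternatives were other scalings, floors, an added constant of 16 and other probe sets. The number of arrays, 1 per population, limits every value.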

Additional observations from a re-analysis of the deposited data

Results flagged for a closer look

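Thy1, a surface gene of T cells and of fibroblasts, differed from the ES cell array in opposite directions in the lymphocyte arrays. The log2 difference was 2.61 for T cells and -3.48 for B cells, with signals of 1179.7 (ES), 105.6 (B) and 7185.1 (T). The difference between these was not tested, since each population had 1 array. The part of feeder cells in the ES cell signal of Thy1 was not tested either.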

How the results depend on the processing

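Under 7 other settings of scaling, floor and probe set, 21 to 26 members exceeded ES cells by 4-fold or more in the T cell array and 14 to 24 in the B cell array. Under these and a further one that kept only members detected in both lymphocyte arrays, the median T cell minus B cell difference ran from 1.22 to 1.32 and 23 to 25 members had T cell signals at least 2-fold above B cells. Scaling moved the median of all genes from -0.05 to -0.07 at most. Of the summary values, the interquartile range of the T cell minus B cell difference moved most, to 0.98 with the floor at the 35th percentile, where 37 members in place of 34 were measured. For single members, 225 of the alternative values moved by less than the standard deviation of a single probe set, 0.35, and 7 by more. Of those at least 2-fold apart, 0 changed sign. The 225 include values that could not move, so they are no measure of stability. Members with 1 probe set kept their value under the probe set settings, and members above every floor kept theirs under the floor settings. The 7 were C1qb (1.73) and Zbtb46 (1.04) by the second brightest probe set, Axl (0.62) by the median of its probe sets, Timd4 (0.67) and Flt3 (0.16) with the higher floor, and Vsig4 (-0.82 with 16 added, -0.97 with the lower floor). Members no longer measured under a setting were left out of these counts. They were Axl by its second brightest probe set, Itgam with both other scalings, and Itgam, Vsig4 and Zbtb46 with the higher floor. No paired analysis was possible because each population had 1 array. Dim members are limited by the detection level, and no result has a replicate check.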
